A study of Mus musculus with 28 samples.

Results

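The Cdkn2a and Cdkn2b locus on mouse chromosome 4 was described through all deposited histone mark peaks overlapping mm9 positions 88900000 to 88975000, an interval of 75 kb. Of the 950445 peaks in 24 lists, 80 overlapped it. Within it, the gene intervals used were about 88920000 to 88941000 for Cdkn2a (Entrez gene 12578) and about 88952000 to 88957000 for Cdkn2b (Entrez gene 12579). Both genes are on the minus strand, so that each gene starts at the upper end of its interval. In the RefSeq gene order, the long noncoding RNA gene Gm12610 is listed between both, and Mtap and Dmrta1 are the nearest protein-coding genes outside. No annotation of the mm9 build was used, so exons and introns were not assigned to peaks.

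Cdkn2a makes 2 unrelated proteins from different first exons. The upstream start gives p19ARF, which binds the ubiquitin ligase MDM2 and so stabilises p53. The downstream start, inside the gene, gives p16INK4a, an inhibitor of the cyclin D kinases CDK4 and CDK6 that keeps the retinoblastoma protein active. Cdkn2b encodes p15INK4b, a related inhibitor of the same kinases that transforming growth factor beta is known to induce. The locus is a textbook target of Polycomb repression, in which EZH2 places H3K27me3, and oncogenic Ras is known to be able to switch it on. Of the other marks measured, H3K4me3 and H3K27ac are typical of active promoters, H3K79me2 of transcribed gene bodies, H3K4me1 of enhancers and H3K9me3 of heterochromatin.

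The material was mouse lung tumour tissue, in which DNA bound to each modified histone was enriched with an antibody and sequenced (ChIP-seq) in 4 libraries per mark, giving 24 peak lists, while 4 input samples were not analysed here. Per the labels' protocols, the mice carried K-RasLSL-G12D, a mutant K-Ras allele kept silent by a stop cassette until Cre removes it, either alone or with Mll4fl/fl, floxed alleles of a histone methyltransferase gene. All tumours thus share the K-Ras allele and the Ad-CMV-Cre treatment, an adenovirus in which a general viral promoter drives Cre and so does not choose a cell type. Ages and strains were not given. The tumour type of a library is not among the labels. The names of the deposited lists carry MLL for replicates 1 and 2 of each mark and RAS for replicates 3 and 4. Values of both pairs are set side by side under these names, with no test between them, because 2 against 2 libraries cannot give an exact permutation p under 0.333. Whether replicates came from separate animals was not stated, so p-values measure the spread between these libraries. The tissue is a mixture of cells, and fewer cells carrying a mark and less of the mark per cell cannot be told apart.

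The lists held 5224 to 96068 peaks, and sequencing depth was unknown, so a missing peak does not show that a mark was absent. Several libraries stood apart from their mark. The H3K4me3 replicate 1 list covered 3.18 Mb, against 26.97 to 33.04 Mb in the other H3K4me3 lists. The median peak of H3K27me3 replicate 3 was 1487 bp wide, against 337 to 455 bp in the others of that mark. H3K27ac replicate 2 shared bases with H3K79me2 replicate 2 at 82.7% of its peaks, while for the other H3K27ac replicates that share was 36.4% to 43.0%. The H3K27ac lists also fell into 2 sets by median width, 233 and 216 bp in replicates 1 and 2 and 2051 and 1702 bp in replicates 3 and 4. H3K9me3 replicate 4 overlapped H3K79me2 with 36.3% of its peaks, against 5.96% to 7.03% in the others. Lung and tumour marker genes could not be checked without an mm9 annotation.

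The sequences before the gene starts are shown because H3K4me3 lay over the upstream Cdkn2a start and the Cdkn2b start. The downstream Cdkn2a start is shown for comparison. It was not placed in mm9, so no mark is assigned to it. All 3 starts listed for both genes matched in the RefSeq promoter table (GRCm38.p6, minus strand). The 250 bases before each start are printed 5′ to 3′, with the dinucleotide CG, the site of DNA methylation and the letter pair that defines CpG islands, in capitals.
Cdkn2a upstream start: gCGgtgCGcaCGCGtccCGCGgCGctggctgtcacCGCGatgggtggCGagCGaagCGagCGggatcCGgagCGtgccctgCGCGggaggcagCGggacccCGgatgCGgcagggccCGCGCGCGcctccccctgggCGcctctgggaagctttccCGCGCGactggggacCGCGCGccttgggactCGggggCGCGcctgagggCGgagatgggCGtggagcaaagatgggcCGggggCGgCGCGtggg
Cdkn2a downstream start: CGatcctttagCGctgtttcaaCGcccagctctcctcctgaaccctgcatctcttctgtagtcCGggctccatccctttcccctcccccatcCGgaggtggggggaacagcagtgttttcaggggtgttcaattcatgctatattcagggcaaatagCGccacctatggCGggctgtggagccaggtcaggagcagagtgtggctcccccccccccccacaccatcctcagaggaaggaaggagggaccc
Cdkn2b start: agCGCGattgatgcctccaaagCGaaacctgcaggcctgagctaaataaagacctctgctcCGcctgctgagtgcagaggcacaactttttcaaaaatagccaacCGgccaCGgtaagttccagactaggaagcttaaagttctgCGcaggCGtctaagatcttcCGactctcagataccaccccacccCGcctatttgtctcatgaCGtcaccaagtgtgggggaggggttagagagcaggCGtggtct
The upstream Cdkn2a sequence held 40 CG pairs, and 1.31% of the 32851 promoters in the table held as many or more in the same 250 bases. The Cdkn2b sequence held 12 (33.5% of promoters held as many or more) and the downstream Cdkn2a sequence held 7 (46.3%). The GC content was 78.4% for the upstream Cdkn2a sequence, 60% for the downstream one and 53.6% for Cdkn2b. The GC box GGGCGG, searched on both strands and overlapping the CG pairs, occurred 2 times before the upstream Cdkn2a start and in neither of the other windows, and 32.7% of all promoters held it. Neither the E-box CACGTG (6.02% of promoters) nor the TATA box TATAAA (12.4%) was found in any of the 3 windows.

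H3K27me3 was the most extensive mark of the locus, with most of it on Cdkn2a and no peak in the Cdkn2b interval in any of the 4 lists. Of the 80 peaks, 59 were H3K27me3, from all 4 libraries. H3K4me3 gave 8 peaks from 3 libraries, H3K27ac 6 from 4, H3K79me2 4 from 3, H3K4me1 3 from 2, and H3K9me3 none. For scale, the genome was tiled into 75 kb windows of which the locus was 1, and 21417 windows held a peak of any library. H3K27me3 in 4 of 4 libraries was found in 16.4% of these windows, H3K4me3 in at least 3 in 41.2%, H3K27ac in 4 in 29.2% and H3K79me2 in at least 3 in 38.2%. H3K4me1 in at least 2 libraries was found in 59.4% of windows, and no H3K9me3 in any library in 61.2%. Each of these states, taken alone, was thus shared with at least 16.4% of windows. H3K27me3 and H3K27ac together, each in 4 of 4 libraries, were found in 3.51% of windows. A joint share cannot exceed either share alone. In replicates 1 and 2 the locus met this through H3K27ac peaks of at most 255 bp, none scored at least 100.

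**Figure D1:**
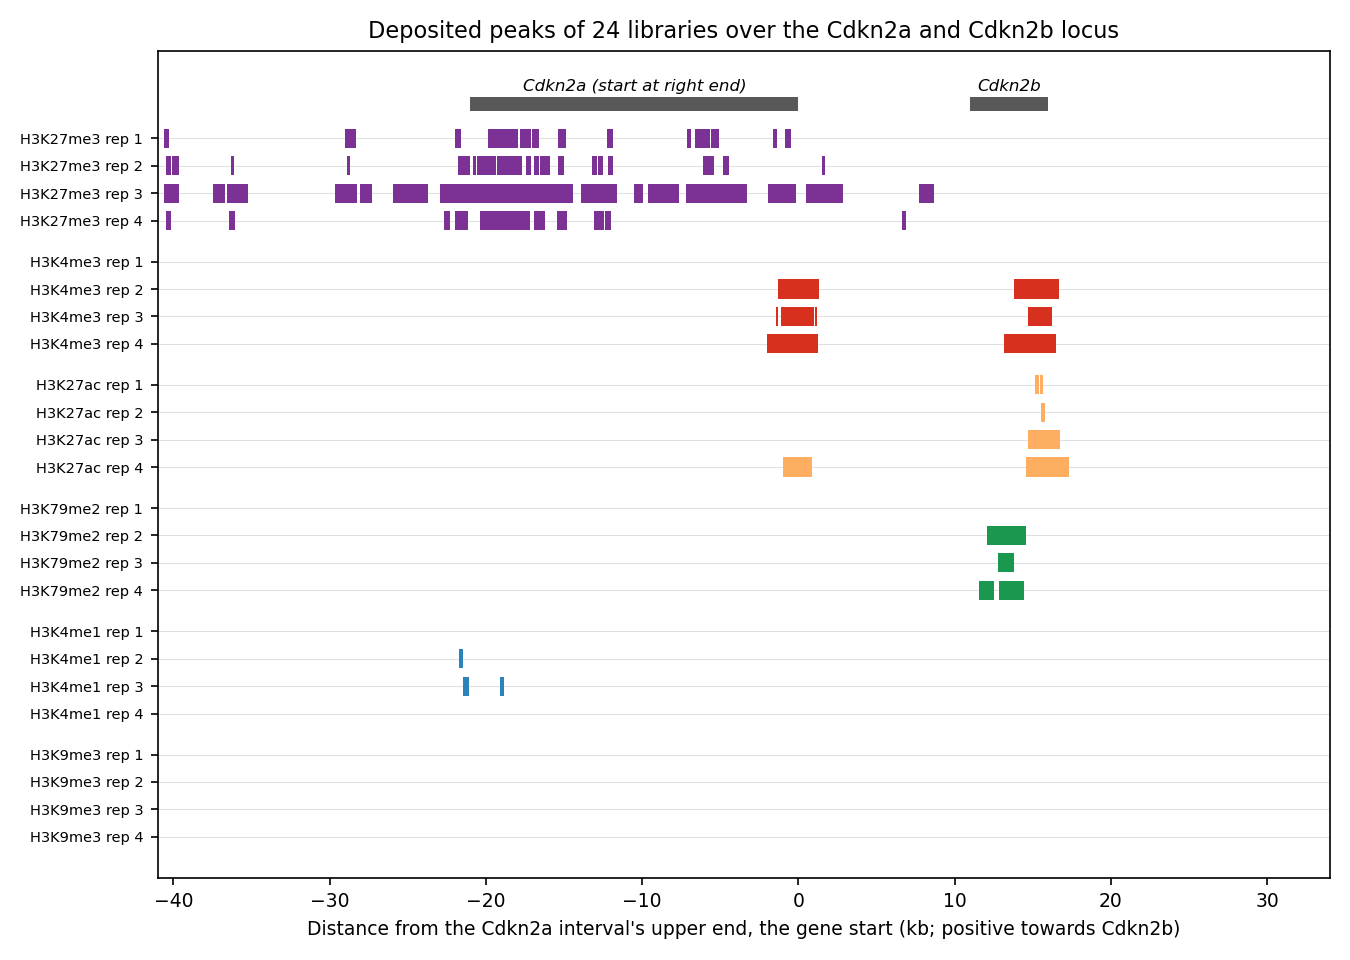
Each bar is a deposited peak; rows are the 24 libraries by mark and replicate, and the horizontal axis is the distance in kb from the upper end of the Cdkn2a interval, where the gene starts, positive towards Cdkn2b. The grey bars mark the gene intervals. The 59 H3K27me3 peaks lie over Cdkn2a and the sequence beside it, and the Cdkn2b interval holds H3K4me3, H3K27ac and H3K79me2 peaks but none of H3K27me3.

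H3K27me3 covered 10.3% of the locus in replicate 1, 11.8% in replicate 2, 39.6% in replicate 3 and 10.4% in replicate 4, a mean of 18.0% ± 14.4 (SD, n = 4). Replicate 3 stood far above the others, which lay within 2 percentage points of each other, and it is the library with wide peaks throughout its list. Every H3K27me3 value lay above every value of the other marks. The covered share was 0%, 7.32%, 5.16% and 8.81% for H3K4me3 in replicates 1 to 4. It was 0.564%, 0.285%, 2.77% and 6.13% for H3K27ac, and 0%, 3.29%, 1.34% and 3.44% for H3K79me2. H3K4me1 covered 0%, 0.383%, 0.761% and 0%, and H3K9me3 covered 0% in all 4 libraries. The ranges of H3K4me3, H3K27ac and H3K79me2 overlapped, so their order was not resolved.

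H3K27me3 covered more of the locus than each of the other marks when all deposited peaks were counted. The difference in mean cover was 12.7 percentage points against H3K4me3, 15.6 against H3K27ac, 16.0 against H3K79me2, 17.7 against H3K4me1 and 18.0 against H3K9me3. H3K27me3 was higher in 16 of 16 library pairs of each comparison. Against H3K9me3, which had no peak here, that count and its p were fixed once each H3K27me3 library had a peak, and H3K4me1 was at 0% in 2 of 4 libraries, so neither comparison says more than that the other mark was at or near 0%. Each exact two-sided permutation p was 0.0286, the smallest that 4 against 4 libraries can give, and 0.0286 after Benjamini-Hochberg adjustment over the 5 comparisons. H3K27me3 replicate 3 set much of the size: without it the differences were 5.50 points against H3K4me3 (exact permutation p adjusted 0.0571) and 8.38 against H3K27ac (adjusted 0.0571), the smallest of the 5. Leaving out any 1 library of the other mark kept every direction but gave adjusted exact permutation p of 0.0571 to 0.2, with differences of at least 10.9 points. With peaks scored at least 100 alone, the differences against H3K4me3 (9.15 points, exact permutation p adjusted 0.171) and H3K27ac (12.2 points, adjusted 0.0714) no longer passed the threshold. With the same number of best-scored peaks in every library, that against H3K4me3 was 4.96 points (exact permutation p adjusted 0.0857). Within 2 kb of both gene starts the order turned, with H3K27me3 below H3K4me3 by 33.9 points and below H3K27ac by 10.1 points, neither past the threshold (exact permutation p adjusted 0.286 and 0.543).

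The H3K27me3 of the locus stood alone on its stretch of chromosome. No H3K27me3 peak of any library lay in the 2 windows of 75 kb on either side. The nearest H3K27me3 peak below the locus was 391 to 437 kb from its first peak over the 4 libraries, and the nearest above was 240 to 279 kb from its last. Of the 3507 windows with H3K27me3 in 4 of 4 libraries, 150 had none in the 2 windows on either side in any library, which is 0.7% of all windows tested. Those flanking windows were not empty of other marks: H3K79me2 peaks were found from 88750001 to 88825000 in 4 of 4 libraries, and H3K27ac peaks from 89050001 to 89125000 in 4 of 4.

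Set against the genome, the locus was among the windows most covered by H3K27me3 in each list. Windows covered at least as much made up 1.55%, 3.51%, 4.33% and 5.85% of the 21417 windows with a peak in replicates 1 to 4. With the windows that hold no peak kept, these shares were 0.939%, 2.13%, 2.63% and 3.56%. Relative to the mean window of the same list, the locus was covered 15.2-fold, 7.998-fold, 6.21-fold and 5.13-fold. Replicate 3, the highest in absolute cover, was thus not the highest on this scale. H3K4me3 also lay above its mean window in replicates 2, 3 and 4, at 3.56-fold, 3.07-fold and 4.35-fold, with 6.76%, 9.67% and 4.61% of the windows with a peak covered at least as much. H3K79me2 lay below, at 0, 0.339, 0.151 and 0.481 times the cover of the mean window.

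**Figure D2:**
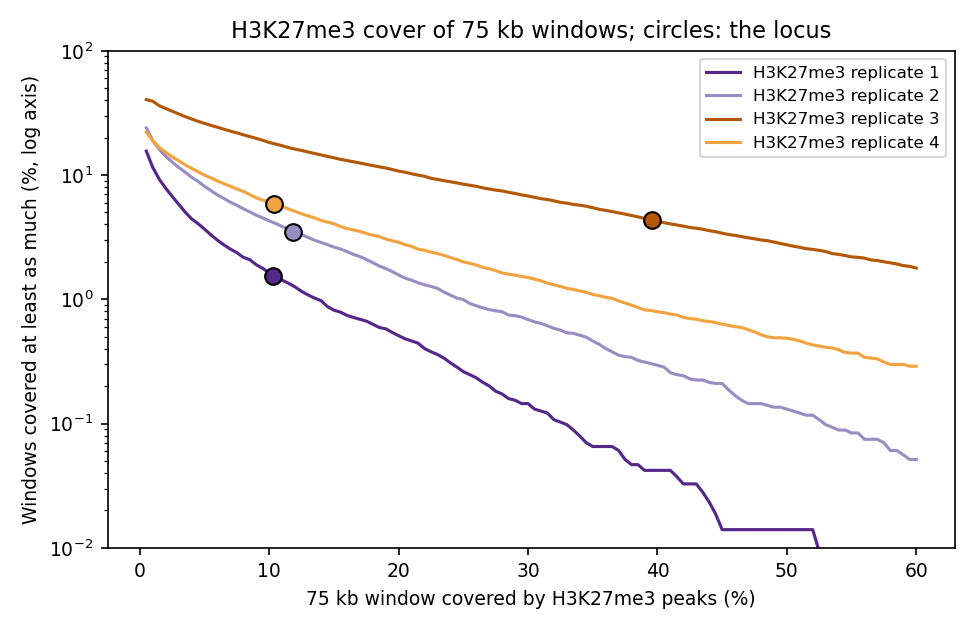
The lines give, for each H3K27me3 library, the percent of 75 kb windows with a peak (vertical, log axis) covered by peaks at least as much as the percent on the horizontal axis, and the circles mark the locus. The circles lie between 1.55% and 5.85% of windows, with replicate 3 far to the right at 39.6% cover.

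Within the locus, Cdkn2a carried most of the H3K27me3. Of the 21 kb interval, 30.3% was covered in replicate 1, 31.6% in replicate 2, 81.1% in replicate 3 and 26.8% in replicate 4 (mean 42.4% ± 25.9, SD, n = 4). H3K27me3 was not confined to the gene. The 20 kb of the locus below Cdkn2a were covered at 6.67%, 10.1%, 46.8% and 9.59% in replicates 1 to 4. The Cdkn2b interval was at 0% in all 4, and the last H3K27me3 peak ended 11475, 9316, 2351 and 4142 bp below it in replicates 1 to 4. Windows of the Cdkn2a length held H3K27me3 in 4 of 4 libraries in 9.08% of cases. Windows covered at least as much as Cdkn2a made up 0.638%, 1.58%, 1.96% and 3.51% in replicates 1 to 4. Windows of the Cdkn2b length lacked H3K27me3 in all 4 libraries in 69.1% of cases, so the lack of peaks at Cdkn2b is the common state of the genome.

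**Figure D3:**
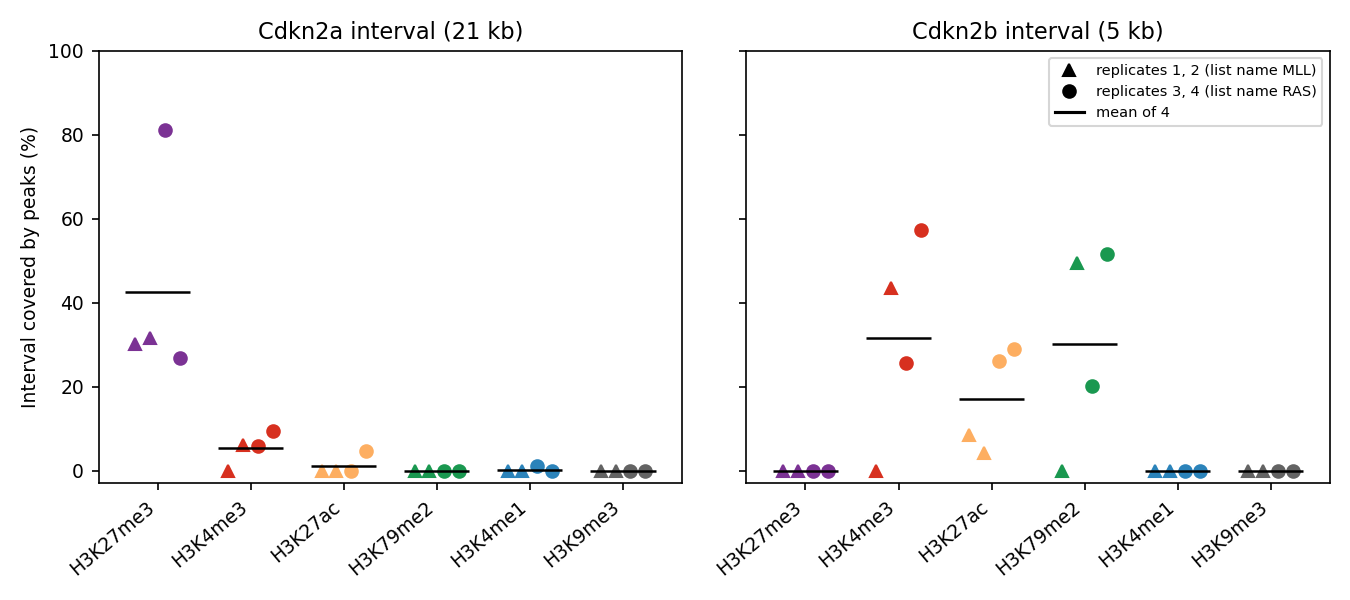
The percent of the Cdkn2a interval (left) and the Cdkn2b interval (right) covered by peaks is shown for each library by mark. Triangles are replicates 1 and 2 (list names with MLL), circles are replicates 3 and 4 (RAS), and bars are means of 4. All H3K27me3 libraries lie between 26.8% and 81.1% on Cdkn2a and at 0% on Cdkn2b.

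H3K27me3 was not spread evenly along Cdkn2a. Bases covered in all 4 libraries summed to 3364 bp in 11 segments, 9 of which (3061 bp) lay inside the gene interval between 88921115 and 88929002, in its downstream part away from the upstream start. The longest of them were 88922427 to 88923058 (632 bp) and 88921720 to 88922342 (623 bp). A second cluster, from 88934872 to 88935623, was covered in 3 libraries, all but replicate 4. The strongest H3K27me3 peak lay at 88920408 to 88921644 in replicate 2 (score 458.8), at 88918057 to 88926558 in replicate 3 (2880) and at 88920643 to 88921655 in replicate 4 (471.0). In replicate 1 it lay in the second cluster, at 88934356 to 88935357 (248.5). The score is the authors' value for a peak, and peaks were ranked by it only within a list. These peaks outscored 93.4%, 96.4%, 99.4% and 92.3% of the H3K27me3 peaks of their own lists in replicates 1 to 4.

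Around the upstream Cdkn2a start, the p19ARF start, H3K27me3 cover was below that of the whole gene interval in replicates 1, 2 and 4, and not in replicate 3. Within 2 kb of the start it was 15.6%, 4.98%, 81.4% and 0% in replicates 1 to 4, against the 30.3%, 31.6%, 81.1% and 26.8% of the interval. Windows of 4 kb held H3K27me3 in at least 3 of 4 libraries in 9.99% of cases. The best H3K27me3 peaks there outscored 63.7%, 2.26% and 61.5% of their lists in replicates 1, 2 and 3. The best peaks of the 4 lists, elsewhere over the gene, outscored 92.3% to 99.4%. That of replicate 3 reached past the lower end of the gene interval. Replicate 4 had no H3K27me3 peak over the last 11998 bp of the Cdkn2a interval before the start.

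H3K4me3 marked the upstream Cdkn2a start in 3 of 4 libraries. The peak lay at 88939715 to 88942326 in replicate 2, at 88939884 to 88941989 in replicate 3 and at 88938991 to 88942260 in replicate 4. Replicate 1 had no H3K4me3 peak anywhere in the locus. H3K4me3 covered 65.3%, 59.0% and 81.5% of the 4 kb around the start in replicates 2 to 4. Windows of 4 kb held H3K4me3 in at least 3 libraries in 10.8% of cases, and windows covered at least as much made up 1.43%, 1.36% and 0.738% in replicates 2, 3 and 4. The 3 peaks were strong ones, with scores above 78.2%, 85.7% and 88.0% of their lists. Among peaks of replicates 2, 3 and 4 scored at least as high as the one at this start, replicate 1 overlapped 72.1%, 65.7% and 77.8%. Replicate 1 thus lacked other peaks as strong, and the part of its small list in the missing peak was not tested.

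Between libraries of the same replicate number, H3K4me3 and H3K27me3 shared bases in replicate 3 alone. Replicate 1 had no H3K4me3 peak to share one with. Across numbers, the H3K27me3 peak of replicate 1 at 88940139 to 88940525 lay within the H3K4me3 peaks of replicates 2, 3 and 4 at the upstream start. The shared length over the locus was 0 bp in replicate 2, 1679 bp of the 3869 bp of H3K4me3 in replicate 3 and 0 bp in replicate 4. In replicate 2 the nearest peaks of both marks were 159 bp apart, and in replicate 4 they were 5358 bp apart. In replicate 3 the H3K27me3 peaks at 88939064 to 88940820 and 88941503 to 88943852 overlapped both edges of the H3K4me3 region and left its centre free. Of 8 H3K4me3 peaks at the locus, 3 touched H3K27me3 of the same replicate number, all in replicate 3, where 15.9% of H3K4me3 peaks genome-wide did (9.42% and 8.68% in replicates 2 and 4). None of the 6 H3K27ac and 4 H3K79me2 peaks did, which is the common state: genome-wide, 0.0712% to 3.40% of H3K27ac peaks and 0.182% to 1.198% of H3K79me2 peaks touched H3K27me3 over the 4 replicates. Windows of the Cdkn2a length held H3K27me3 in 4 of 4 and H3K4me3 in at least 3 libraries in 2.52% of cases, and also lacked H3K79me2 in all 4 libraries, as Cdkn2a did, in 1.63%.

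Other active marks were sparse on Cdkn2a. H3K79me2 covered 0% of the interval in all 4 libraries, a state shared by 62.2% of windows of that length. H3K27ac had 1 peak, at 88940032 to 88941888 over the upstream start, in replicate 4 alone, and 54.5% of windows of that length held H3K27ac in at least 1 library. That peak covered 46.4% of the 4 kb around the start, against 0% in replicates 1, 2 and 3, and its score exceeded 57.1% of its list. Of the 18539 peaks of replicate 4 scored at least as high, replicate 3 overlapped 95.6%, replicate 1 71.6% and replicate 2 40.2%. Replicate 3 lacked few peaks of this score, and the one at Cdkn2a was among them. Why it was missing was not tested. H3K4me1 had 3 weak peaks at the downstream end of the gene and just beyond it. They were 287 bp in replicate 2 (88919251 to 88919537) and 344 and 227 bp in replicate 3 (88919561 to 88919904 and 88921919 to 88922145), and all 3 lay wholly within H3K27me3 peaks of the same replicate number. Genome-wide, 1.57% and 2.40% of H3K4me1 peaks did so in replicates 2 and 3. These shares are not a like measure, because H3K27me3 covered far more of Cdkn2a than of the genome. In replicates 2 and 3 its cover was 31.6% and 81.1% of Cdkn2a, against 2.05% and 8.84% of the mean window. Both H3K4me1 peaks of replicate 3 lay in the same H3K27me3 peak, from 88918057 to 88926558.

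**Figure D4:**
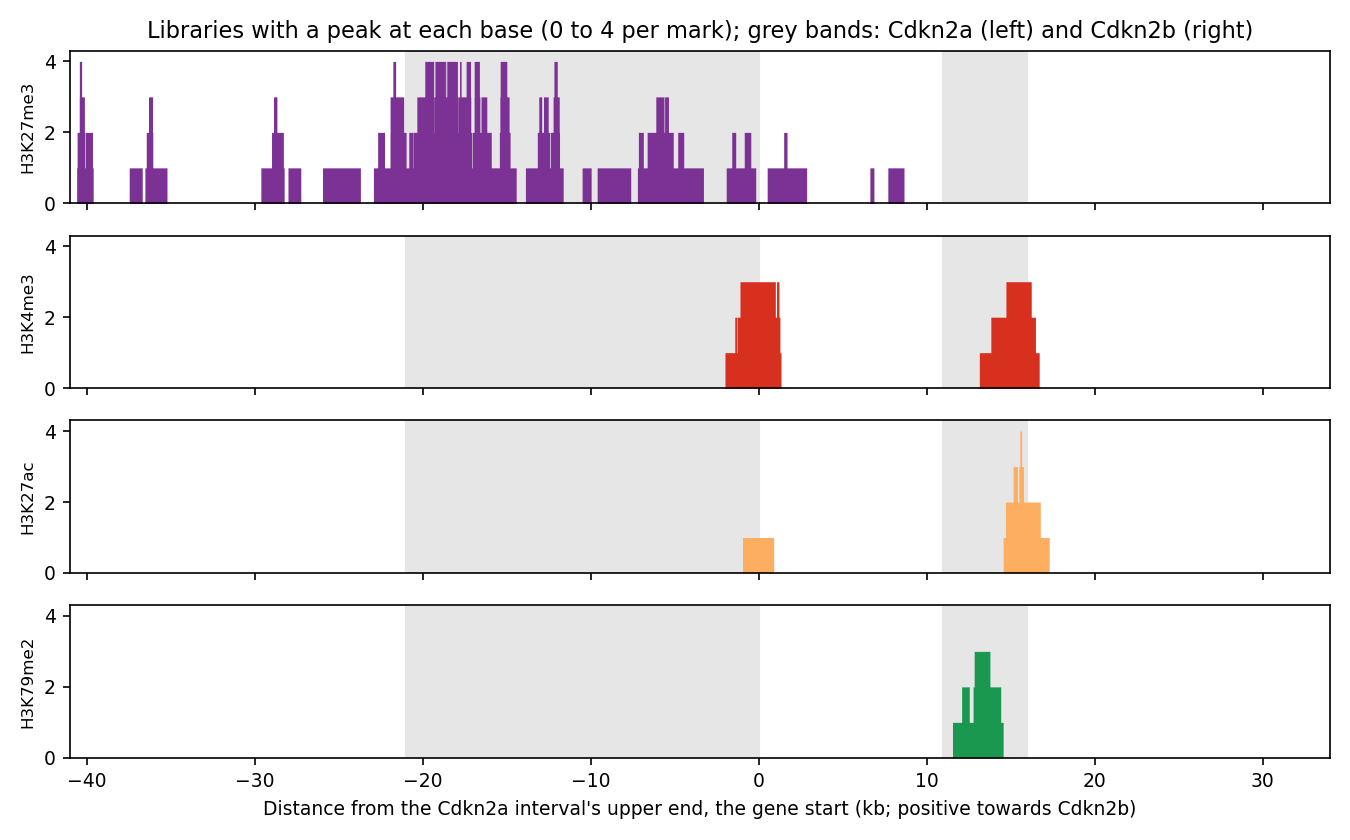
For each base of the locus, the height gives the number of libraries (0 to 4) with a peak of H3K27me3, H3K4me3, H3K27ac or H3K79me2, against the distance in kb from the Cdkn2a start, positive towards Cdkn2b. Grey bands are the gene intervals. H3K27me3 reaches 4 libraries only left of the Cdkn2a start, H3K4me3 reaches 3 at both gene starts, and H3K79me2 is found in the Cdkn2b interval alone.

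Cdkn2b carried H3K4me3 and H3K27ac, marks of active promoters, at its start, and H3K79me2, the mark of transcribed gene bodies, further into it. H3K4me3 covered 0%, 43.6%, 25.6% and 57.3% of the 5 kb interval in replicates 1 to 4. The peaks lay at 88954821 to 88957699, 88955719 to 88957226 and 88954137 to 88957475 in replicates 2, 3 and 4. Their scores exceeded 41.1%, 73.0% and 67.2% of their lists, in each case less than the peak at the upstream Cdkn2a start in the same list. Of peaks scored at least as high, replicate 1 overlapped 50.5%, 51.2% and 62.6%. H3K4me3 in at least 3 libraries was found in 11.8% of windows of this length.

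H3K27ac was found at Cdkn2b in 4 of 4 libraries, against 7.66% of windows of this length, and covered 423 bp, 214 bp, 1312 bp and 1447 bp of the interval in replicates 1 to 4. The 3 peaks of replicates 1 and 2 were narrow calls of at most 255 bp. Those of replicate 1 scored above 39.6% and 4.63% of their list, and that of replicate 2 above 46.7%. The peaks of replicates 3 and 4 were 2076 and 2741 bp wide and scored above 70.2% and 70.7% of their lists. All 4 libraries shared 108 bp, from 88956548 to 88956655, within 1 kb of the given start. Without replicate 2, the library that overlapped H3K79me2 genome-wide, H3K27ac was found in 3 of 3.

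H3K79me2 covered 0%, 49.4%, 20.1% and 51.6% of the Cdkn2b interval in replicates 1 to 4, and at least 3 libraries had it in 27.6% of windows of this length. The peaks lay at 88953083 to 88955552 in replicate 2, 88953764 to 88954766 in replicate 3, and 88952538 to 88953535 and 88953829 to 88955408 in replicate 4. The bases shared by 3 libraries, 88953829 to 88954766, lay downstream of the shared H3K27ac bases. H3K27ac and H3K79me2 shared no base here in any replicate, with gaps of 995, 922 and 145 bp in replicates 2, 3 and 4, and replicate 1 had no H3K79me2 peak to share one with. Genome-wide, 82.7%, 40.04% and 36.4% of H3K27ac peaks overlapped H3K79me2 in replicates 2, 3 and 4. The H3K79me2 peaks were weak to middling, above 43.3%, 33.1% and 67.2% of their lists. Windows of the Cdkn2b length with H3K27ac in 4 of 4, H3K4me3 and H3K79me2 in at least 3 and no H3K27me3 in any library made up 3.58%.

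By list name, whether the H3K27me3 values overlapped differed between intervals and scales. The Cdkn2a cover was 30.3% and 31.6% in the libraries named MLL and 81.1% and 26.8% in those named RAS, so that both MLL values lay between the RAS values. Relative to the mean window of the same list, Cdkn2a cover was 32.4-fold and 15.4-fold under MLL and 9.17-fold and 9.56-fold under RAS, and these values did not overlap. Of windows of this length with H3K27me3 in any library, 9.58% also had both relative values under MLL above both under RAS. Over the whole locus the relative values were 15.2-fold and 7.998-fold against 6.21-fold and 5.13-fold, which did not overlap either, as in 12% of 75 kb windows with H3K27me3 in any library. Only windows with a peak in both MLL lists can meet either condition. Replicate 1 had a peak in 12.8% of windows of the Cdkn2a length and in 21.8% of 75 kb windows. Among windows with peaks in both MLL lists both shares are thus higher, and they were not computed. The mean cover of windows of the Cdkn2a length was 0.934% and 2.05% under MLL and 8.84% and 2.80% under RAS. For 75 kb windows it was 0.674% and 1.48% under MLL and 6.38% and 2.02% under RAS. The part of the mean window cover in the relative values was not tested. Within 2 kb of the upstream Cdkn2a start the relative values overlapped, at 9.97-fold and 1.45-fold under MLL and 5.49-fold and 0 under RAS. Between the genes, H3K27me3 covered 0% and 1.81% of the interval under MLL and 30.1% and 2.18% under RAS. These values did not overlap, in the other direction, as in 32.1% of windows of that length with H3K27me3 in any library. Windows lacking a peak in either RAS list could not meet this. Relative to the mean window the values between the genes did overlap, at 0 and 0.723 times under MLL and 2.79 and 0.637 times under RAS.

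Of the 3 active marks at Cdkn2b, H3K27ac alone had values that did not overlap between list names, and on 1 scale only. The H3K27ac cover of the interval was 8.46% and 4.28% under MLL and 26.2% and 28.9% under RAS, which did not overlap. The same held in 56.3% of windows of this length with H3K27ac in any library, and the median widths of these lists were 233 and 216 bp against 2051 and 1702 bp. A value shared by most such windows is not particular to Cdkn2b. Relative to the mean window of the same list, the cover was 3.13-fold and 1.43-fold under MLL and 1.68-fold and 1.89-fold under RAS, and these values overlapped. H3K4me3 was 0% and 43.6% against 25.6% and 57.3%, and H3K79me2 was 0% and 49.4% against 20.1% and 51.6%, both overlapping. The libraries of replicate 1 (MLL) lacked H3K4me3 and H3K79me2 peaks over the whole locus. The H3K79me2 replicate 1 list covered 140.9 Mb, within the 114.9 to 155.8 Mb of the other H3K79me2 lists.

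The 75 kb windows whose cover over the 24 libraries was most like that of the locus lay on chromosome 13 from 113725001 to 113800000 (Pearson's r 0.976), on chromosome 3 from 96250001 to 96325000 (r 0.975) and on chromosome 4 from 3850001 to 3925000 (r 0.971). These correlations are over 24 libraries that share list sizes and peak widths, and are descriptions. In all 3 windows H3K27me3 replicate 3 had the highest cover of its mark, at 33.6%, 41.0% and 22.5%.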

How the data were processed

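Peak lists from ChIP-seq of 6 histone marks in mouse lung tumours, 4 libraries per mark, were analysed. Each deposited list gives chromosome, start, end, name and a score per peak, and peak names carry MACS. The submitters' processing notes name CASAVA 1.7, Bowtie, MACS, deepTools and mm9, without settings. The score is the authors' value for each peak, never under 50 in the deposited lists, and depends on depth. Read depth was unknown. The locus and gene intervals and the lists of tests were chosen with earlier results of these data known.

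Here the percent of an interval covered by the union of a list's peaks was computed for each library, with Python 3.11.15, numpy 2.4.6 and pandas 2.3.3. Marks were taken from the titles. H3K27me3 was compared with the 5 other marks by exact two-sided permutation tests over 70 splits, Benjamini-Hochberg adjusted over 5, with a threshold of 0.05. Windows of each interval's length were tiled over the genome up to the last peak, and windows without any peak were left out. A mark was called present in a window where it covered at least 1 base. The named items were both genes, their starts with 2 kb on either side, the flanks, all merged regions, and the 3 most similar windows. Positions count from 1. The listed cell cycle genes and cell type markers were not analysed, because no mm9 annotation was used. The alternatives were a score of at least 100 (the same value in all 24 lists, whose scores need not be comparable), the 5224 best-scored peaks per list, closing gaps of 1000 bp, other intervals and scales, a replicate block and leaving out libraries. Cover and tests were tested on simulated data. MLL and RAS come from the names of the deposited lists, not from the labels.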

Additional observations from a re-analysis of the deposited data

Results flagged for a closer look

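In 23 groups of 4 libraries (cover of the locus, of each gene and of each gene start, and the number of peaks, by mark), a library lay apart from the other 3 beyond Dixon's 95% critical value in 5. Chance alone gives about 1 in 20 groups, here 1.15, and several of the 5 share a library. In 3 of the 5 the other libraries are all at 0%, where any value at all passes, so the chance rate does not apply to those. H3K27me3 replicate 3 covered 39.6% of the locus, against 10.3% to 11.8% in the others, and 81.1% of Cdkn2a, against 26.8% to 31.6%. H3K27ac replicate 4 covered 4.61% of Cdkn2a and 46.4% of the 4 kb around its start, against 0% in the others. H3K4me1 replicate 3 covered 1.08% of Cdkn2a, against 0% in the others, through 1 peak of 227 bp.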

How the results depend on the processing

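All 5 differences between H3K27me3 and another mark kept their direction, except 2 reversed within 2 kb of the gene starts, at -33.9 points against H3K4me3 and -10.1 against H3K27ac. There the others were 9.74 points against H3K79me2 and 12.7 against H3K4me1 and H3K9me3, none past the threshold. With peaks scored at least 100, the difference was 9.15 against H3K4me3 and 12.2 against H3K27ac, and with the best-scored peaks 4.96 against H3K4me3, all no longer past it. Without H3K4me3 replicate 1, H3K27ac replicate 2 and H3K27me3 replicate 3, the differences of 3.72 against H3K4me3 and 7.66 against H3K27ac had an exact permutation p of 0.1, the smallest that 3 against 3 libraries allow. Leaving out 1 library at a time gave 5.50 to 15.3 points against H3K4me3, 8.38 to 18.2 against H3K27ac, 8.80 to 18.6 against H3K79me2, 10.5 to 20.3 against H3K4me1 and 10.8 to 20.6 against H3K9me3, with 18 of 40 values past the threshold, all of them without an H3K27me3 library. Of the 18, 3 were against H3K4me3, 3 against H3K27ac and 4 against H3K79me2. The rest, 4 against H3K4me1 and 4 against H3K9me3, concern marks at or near 0%. With the replicate block the differences of 12.7, 15.6, 16.0, 17.7 and 18.0 points gave 0.125 in the exact sign-flip test, the lowest p possible with 4 pairs. Deviations of same-numbered libraries from their mark means correlated at -0.117 to 0.0377 over 75 kb windows, so the numbers were not taken to pair them. With the best-scored peaks, mean cover was 0% for H3K79me2, H3K27ac and H3K4me1, 7.62% for H3K27me3 (18.0% with all peaks) and 2.66% for H3K4me3 (5.32%). With windows without peaks kept, 97.7% of windows had less H3K27me3 than the locus, as a mean over libraries, against 96.2%, and 78.7% of windows had less H3K27ac than the locus, against 65.0%. Except where stated, the cause was not tested. Unknown depth limits every statement on a missing peak.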
